A study of Mus musculus with 9 samples.

Results

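The TNF receptor superfamily genes described here were 10 receptors listed by symbol: Tnfrsf1a, Tnfrsf1b, Fas, Tnfrsf10b, Tnfrsf21, Tnfrsf9, Tnfrsf14, Tnfrsf12a, Tnfrsf11b and Cd40. All 10 had a row in the gene table, which held 56289 genes. RNA was sequenced from cultures labelled RAW264.7, a macrophage-like line of BALB/c origin, in 3 groups of 3 libraries. The Con libraries came from cells that the labels call untreated and that the paper's methods describe as given PBS. The TNF-α libraries came from cells given 20 ng/ml recombinant human TNF-α for 24 h. The TNF-α+WBT libraries came from cells given the same TNF-α with 1.0 μg/ml Wang Bi tablet (WBT), a preparation used against rheumatoid arthritis. The labels write WBP for the treatment of the last group, which was taken to be WBT, and all 3 groups shared the line and its medium. No group of WBT without TNF-α was analysed here. The study calls the 3 libraries of a group biological replicates, and the labels do not say whether they came from separate cultures, so the p-values measure the spread between these libraries. The values are FPKM, fragments divided by transcript length in kilobases and by library depth, and the depth was estimated at 20328600 to 26205350 fragments in Con, 18905250 to 22501950 in TNF-α and 16857500 to 19858300 in TNF-α+WBT.

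Receptors of this superfamily carry cysteine-rich repeats outside the cell and bind trimeric ligands of the TNF family. Members with a death domain (Tnfrsf1a, Fas, Tnfrsf10b, Tnfrsf21) can recruit the adaptors TRADD or FADD and an initiator caspase, whereas most of the others bind TRAF proteins directly and feed into NF-κB and MAP kinase signalling. Macrophages are known for both TNF receptors, for Cd40 and for several costimulatory members, and receptor transcripts such as Fas and Tnfrsf9 are known NF-κB targets.

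The label of the cells was set against markers before the receptors were read. Of 16 macrophage genes, 1 (Cd14) was above 1 FPKM in all 9 libraries, at a mean of 5.25 FPKM, while no library had a value above 0 for Cybb, Ctss, Ptprc, Itgam, Tyrobp, Spi1 or Adgre1. The macrophage genes summed to between 6.06 and 8.92 FPKM per library. Of 14 fibroblast genes, 12 were above 1 FPKM in all libraries, with S100a4 the most abundant at a mean of 1177 FPKM. Of 12 Schwann cell genes, 8 were above it, and this list also holds Ngfr, a TNF receptor superfamily gene described below. None of the 8 lymphocyte genes or of the 6 endothelial genes reached 1 FPKM throughout, and all 10 genes used by every cell did. The labelled cell type is thus not shown by its defining transcripts, and the receptor values are given for the cultures as sampled. In bulk RNA, fewer cells of a type and less RNA per cell cannot be told apart.

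4 stretches of sequence carry the points made below, all given 5′ to 3′ on the gene's strand (plus) of GRCm38. The first is the stretch of 250 bases before the RefSeq start of Fas at chr19:34290409-34290658, with matches to the NF-κB-like strings GGNNTTTCC or GGNNTTCCC in capitals.
Fas promoter: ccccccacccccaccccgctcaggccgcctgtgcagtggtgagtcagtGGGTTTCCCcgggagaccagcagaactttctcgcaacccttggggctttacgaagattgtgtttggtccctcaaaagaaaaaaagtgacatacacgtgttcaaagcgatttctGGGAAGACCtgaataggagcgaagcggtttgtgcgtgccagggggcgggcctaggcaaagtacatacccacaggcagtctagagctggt
Tnfrsf9 has 2 RefSeq starts. The 250 bases before the upstream start, chr4:150919905-150920154, held no match.
Tnfrsf9 first promoter: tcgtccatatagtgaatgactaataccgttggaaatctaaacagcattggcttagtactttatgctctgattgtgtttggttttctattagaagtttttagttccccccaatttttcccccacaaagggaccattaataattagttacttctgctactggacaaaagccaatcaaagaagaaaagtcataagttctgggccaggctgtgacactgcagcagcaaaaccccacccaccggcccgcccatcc
Before the downstream start, from which the transcript Tnfrsf9-205 runs, a pair of overlapping matches makes up the capitals of these 30 bases at chr4:150927947-150927976.
Tnfrsf9 second promoter: agagcagctgGGGATTTCCCaggaggccct
The last stretch is the first 89 bases of the first exon of Tnfrsf1a-204, chr6:125349362-125349450, shown because this short transcript decides the spread of the Tnfrsf1a gene value.
Tnfrsf1a-204 first exon: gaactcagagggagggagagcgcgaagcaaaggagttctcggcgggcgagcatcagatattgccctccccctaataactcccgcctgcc

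RefSeq promoter windows of 250 bases before to 50 bases after a start were on hand for 7 of the 10 genes, in 8 windows. On both strands together, 10.9% of 32851 mouse promoter windows held either string. Among the receptors the windows of Fas and the downstream window of Tnfrsf9 held one, and those of Tnfrsf1a, Tnfrsf1b, Tnfrsf14, Tnfrsf12a and Tnfrsf21 and the upstream window of Tnfrsf9 did not. In Fas the matches lie 202 and 89 bases before the start, the nearer one on the other strand, and in Tnfrsf9 the pair begins 42 bases before the start. These are matches of letters, and binding of any factor was not measured.

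Tnfrsf1a (ENSMUSG00000030341, chr6:125349362-125362484) encodes TNFR1, the death domain receptor through which soluble TNF-α mostly signals. It was at 36.0, 36.7 and 36.1 FPKM in Con, at 34.7, 56.1 and 56.8 in TNF-α, and at 32.2, 37.7 and 31.2 in TNF-α+WBT. The TNF-α group was split, with replicate 1 below every Con library and replicates 2 and 3 above all other libraries. The difference between TNF-α and Con was 0.40 on the log2(FPKM + 0.1) scale (SE 0.17, 95% interval 0.01 to 0.80), with a limma adjusted p of 0.299. Without TNF-α replicate 1 it was 0.64, with an adjusted p of 0.00476, so that a single library decided the call. From TNF-α to TNF-α+WBT the difference was -0.52 (95% interval -0.91 to -0.12), with an adjusted p of 0.685.

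By transcript, the high gene values of TNF-α replicates 2 and 3 sat in Tnfrsf1a-204, a processed transcript without a coding sequence. Tnfrsf1a-204 was at 24.6 and 26.5 FPKM in these libraries and at 0.0733 FPKM or less in each of the other 7. The coding transcript Tnfrsf1a-201 was at 35.0, 35.9 and 34.9 FPKM in Con, at 32.9, 30.5 and 29.1 in TNF-α and at 30.6, 36.1 and 30.2 in TNF-α+WBT. Its TNF-α values were all below its Con values, and replicates 2 and 3, the highest of the group for the gene, were the lowest for this transcript. The difference for Tnfrsf1a-201 between TNF-α and Con was -0.19 (SE 0.08), with an adjusted p of 0.589 over 80149 transcripts. The remaining transcripts that reached 0.5 FPKM, Tnfrsf1a-202 (targeted by nonsense-mediated decay) and the coding Tnfrsf1a-206, stayed at or below 0.66 and 0.84 FPKM.

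Length separates the scales here. Tnfrsf1a-204 has 250 bases in 2 exons, of which 103 lie in a first exon that ends 259 bases before the start of Tnfrsf1a-201, and 147 are shared with the first exon of Tnfrsf1a-201. Tnfrsf1a-201 has 2156 bases, so that a fragment assigned to Tnfrsf1a-204 adds 8.62 times as much FPKM as one assigned to Tnfrsf1a-201. In TNF-α replicates 2 and 3, Tnfrsf1a-204 held 43.8% and 46.6% of the gene's FPKM but 8.46% and 9.42% of its estimated fragments, which is 138 of 1636 and 125 of 1330. Counted as fragments per 1000000 of the library (FPM), with every transcript weighted by its length, the gene was at 76.1, 78.1 and 76.1 in Con, at 72.3, 72.7 and 70.4 in TNF-α and at 67.2, 79.0 and 65.9 in TNF-α+WBT. On that scale the TNF-α libraries were alike, with a coefficient of variation of 1.75% against 25.5% in gene FPKM, and all 3 lay below the Con libraries. The difference between TNF-α and Con turned to -0.10 (SE 0.06, 95% interval -0.24 to 0.05), with a limma adjusted p of 0.503, and over protein-coding transcripts alone it was -0.18 (adjusted p = 0.209). For TNF-α+WBT against TNF-α it was -0.03 in FPM and 0.06 over the coding transcripts. The share of the gene's FPKM in Tnfrsf1a-201 was 97.2% ± 0.59 in Con, 66.8% ± 24.2 in TNF-α and 96.0% ± 0.87 in TNF-α+WBT (SD, n = 3), and the exact two-sided permutation p was 0.1 for TNF-α against Con, the smallest that 3 libraries against 3 can give.

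**Figure D1:**
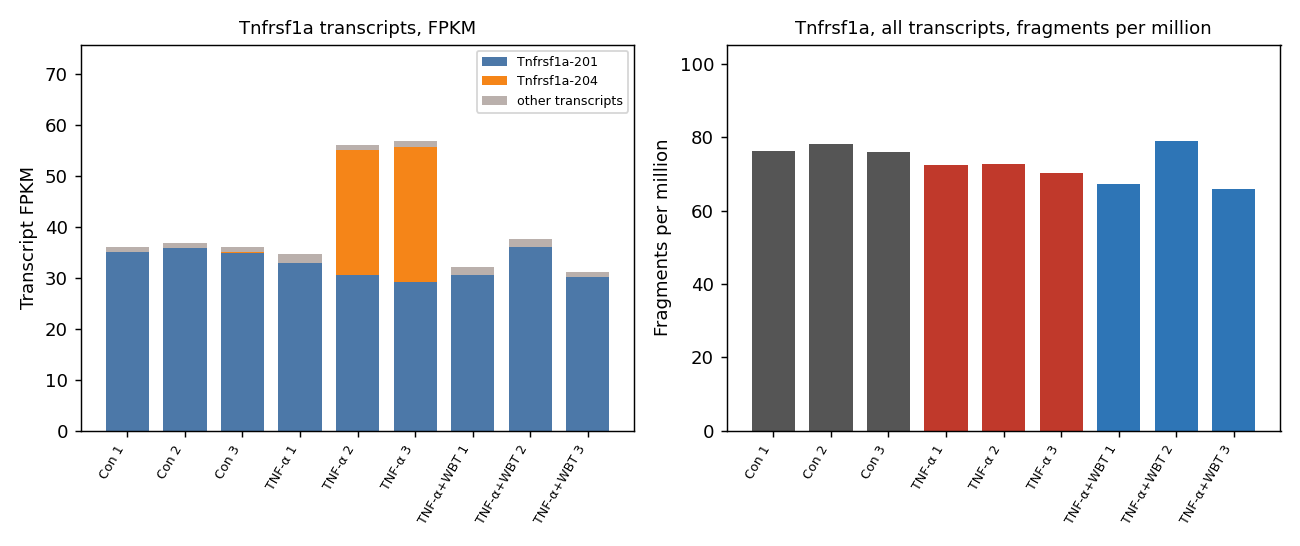
Tnfrsf1a in the 9 libraries, as stacked bars of transcript FPKM (left) and as FPM of all its transcripts together, coloured by group (right). Tnfrsf1a-204 appears in TNF-α replicates 2 and 3, at 24.6 and 26.5 FPKM, while the FPM values lie between 65.9 and 79.0 in every library.

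Tnfrsf1b (ENSMUSG00000028599, chr4:145213463-145246870) encodes TNFR2, which lacks a death domain and binds TRAF proteins. It was at 15.6, 17.4 and 16.8 FPKM in Con, at 15.9, 16.5 and 15.5 in TNF-α and at 16.1, 17.4 and 16.7 in TNF-α+WBT. The 3 groups overlapped, and the difference between TNF-α and Con was -0.05 (95% interval -0.18 to 0.07, limma adjusted p = 0.719). Nearly all of it was the coding transcript Tnfrsf1b-201, at 15.2 to 17.1 FPKM.

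Among the death receptors, Fas and Tnfrsf10b rose and Tnfrsf21 fell under TNF-α. Fas (ENSMUSG00000024778, chr19:34290666-34327772), which starts apoptosis when bound by Fas ligand, was at 1.25, 0.998 and 1.25 FPKM in Con, at 5.49, 5.96 and 6.62 in TNF-α and at 6.61, 6.03 and 4.60 in TNF-α+WBT. Every stimulated library lay above every Con library, and the stimulated groups overlapped each other. The rise from Con to TNF-α was 2.28 on the log2 scale (SE 0.15, 4.85-fold), with an adjusted p of 6.42e-05 by limma, and that from Con to TNF-α+WBT was 2.20 (adjusted p = 0.000104). It rested on an estimated 33.1 to 45.7 fragments in the Con libraries and 110 to 204 in the others.

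The transcripts of Fas changed places between libraries of the same group while the gene stayed level. The coding Fas-201 was at 1.12, 0 and 1.20 FPKM in Con, at 1.38, 0.740 and 6.05 in TNF-α and at 0.600, 5.25 and 4.14 in TNF-α+WBT. Fas-204, annotated as a target of nonsense-mediated decay, was at 0.92 FPKM in Con replicate 2, at 3.61 and 4.74 in TNF-α replicates 1 and 2 and at 2.48 in TNF-α+WBT replicate 1, and at 0.20 or less in the other 5 libraries. It was high in the libraries in which Fas-201 was low, and another coding transcript, Fas-203, was at 2.37 FPKM in TNF-α+WBT replicate 1 alone. In FPM the rise of Fas was 2.31 for TNF-α and 2.13 for TNF-α+WBT against Con. Over the protein-coding transcripts it was 1.92 and 2.67, with adjusted p-values of 0.251 and 0.129, so the call on Fas holds for the gene and not for its coding transcripts as they were estimated.

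Tnfrsf10b (ENSMUSG00000022074, chr14:69767472-69784411), the mouse receptor for TRAIL, was at 5.02, 4.84 and 4.84 FPKM in Con, at 7.10, 6.17 and 6.78 in TNF-α and at 6.57, 6.52 and 6.08 in TNF-α+WBT. All 6 stimulated libraries lay above the Con libraries, and the difference was 0.44 for TNF-α (SE 0.07, 1.35-fold, limma adjusted p = 0.00921) and 0.38 for TNF-α+WBT (SE 0.07, adjusted p = 0.0239). The call against Con in TNF-α+WBT was lost when any of 5 libraries was left out (Con replicates 1, 2 and 3 and TNF-α+WBT replicates 1 and 2), with adjusted p-values of 0.0611 to 0.0868 and differences of 0.36 to 0.39. Most of the gene was the coding Tnfrsf10b-201, at 4.32 to 6.29 FPKM.

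Tnfrsf21 (ENSMUSG00000023915, chr17:43016555-43089189) encodes DR6, a death domain receptor studied mainly in neurons and lymphocytes. It was at 24.9, 23.3 and 25.1 FPKM in Con, at 20.5, 20.9 and 20.1 in TNF-α and at 20.1, 19.9 and 20.7 in TNF-α+WBT. Each Con library was above each stimulated library, and the fall was the smallest change called among the 10 members, by 0.25 in TNF-α (SE 0.04, limma adjusted p = 0.0106) and by 0.27 in TNF-α+WBT (SE 0.04, adjusted p = 0.00926). Both calls needed the trend of the variance with the level, and without it the adjusted p-values were 0.0802 and 0.0716. Its main transcript, the coding Tnfrsf21-201, was at 22.4 to 24.6 FPKM in Con and at 18.8 to 20.2 in the stimulated groups, and it was not called (adjusted p-values 0.182 and 0.184 against Con).

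Tnfrsf9 (ENSMUSG00000028965, chr4:150914562-150946102) encodes CD137, a costimulatory receptor that binds TRAF proteins. Its gene values were 4.86, 4.34 and 3.04 FPKM in Con, 32.5, 16.0 and 15.5 in TNF-α and 14.6, 15.0 and 24.4 in TNF-α+WBT. The stimulated libraries were all above Con, and TNF-α replicate 1 and TNF-α+WBT replicate 3 stood above the other 4. The rise was 2.30 for TNF-α (SE 0.32, 4.92-fold, limma adjusted p = 0.00422) and 2.10 for TNF-α+WBT (SE 0.32, 4.28-fold, adjusted p = 0.00879), and both stayed called with any single library left out, at 1.95 to 2.48 and at 1.86 to 2.23. From TNF-α to TNF-α+WBT Tnfrsf9 differed by -0.20 (95% interval -0.94 to 0.54, adjusted p = 0.956), and it turned to 0.15 without TNF-α replicate 1.

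The spread of Tnfrsf9 within the stimulated groups also followed single transcripts. The most abundant in the stimulated libraries was Tnfrsf9-205, while in Con the mean of Tnfrsf9-208 was higher. Tnfrsf9-205 was at 0.83, 1.16 and 1.45 FPKM in Con, at 12.8, 9.93 and 10.2 in TNF-α and at 9.34, 9.20 and 12.7 in TNF-α+WBT. It was the steadiest of the 4 leading transcripts in the stimulated groups, and it rose by 3.18 (SE 0.22, adjusted p = 0.000750 over all transcripts) in TNF-α and by 3.09 (adjusted p = 0.00107) in TNF-α+WBT. Tnfrsf9-202, a coding transcript of 1003 bases, was at 10.1 FPKM in TNF-α replicate 1 and 10.6 in TNF-α+WBT replicate 3 but at 2.62 or less in the other 7 libraries. Tnfrsf9-208, which has 722 bases, was at 8.72 FPKM in TNF-α replicate 1 and at 3.08 and 1.97 in Con replicates 1 and 2, and at 0.25 or less elsewhere. Tnfrsf9-204 ran the other way, at 2.08 to 2.95 FPKM in the 4 lower stimulated libraries and at 0.11 and 0.05 in the higher pair. Of the remaining transcripts that reached 0.5 FPKM, Tnfrsf9-206 had its highest value of 0.88 in TNF-α replicate 2 and Tnfrsf9-207 its highest of 0.69 in TNF-α+WBT replicate 2. Neither these nor any other transcript of the gene was called besides Tnfrsf9-205.

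On the scale that weights transcripts by length the spread of Tnfrsf9 was smaller and its rise larger. The FPM values were 4.93, 5.09 and 4.51 in Con, 44.3, 28.7 and 28.9 in TNF-α and 27.7, 27.2 and 38.4 in TNF-α+WBT. The coefficient of variation fell from 23.0% to 6.18% in Con, from 45.3% to 26.4% in TNF-α and from 30.9% to 20.3% in TNF-α+WBT, and TNF-α replicate 1 and TNF-α+WBT replicate 3 stayed the highest of their groups. The rise was 2.76 (SE 0.19, adjusted p = 5.61e-05) for TNF-α and 2.64 (SE 0.19, adjusted p = 9.64e-05) for TNF-α+WBT. Unlike in Tnfrsf1a, the difference from Con was called on the gene, the fragment and the coding scale. By start site, Tnfrsf9-205 starts after the downstream bases printed above, whereas Tnfrsf9-208 starts before them and so contains them. The pair from the upstream promoter was listed at 0 in every Con library and reached at most 2.95 FPKM. Tnfrsf9-205 held 30.5% ± 15.6 of the gene's FPKM in Con, 55.8% ± 14.3 in TNF-α and 59.2% ± 6.38 in TNF-α+WBT (SD, n = 3), with exact two-sided permutation p-values against Con of 0.2 and 0.1.

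**Figure D2:**
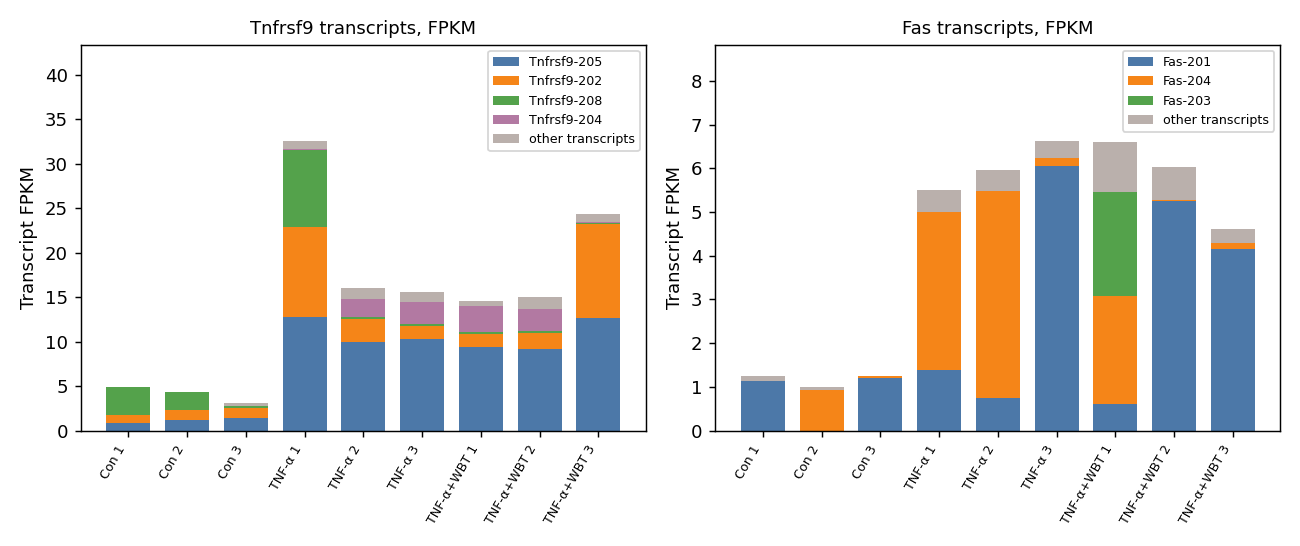
Transcript FPKM of Tnfrsf9 (left) and Fas (right) as stacked bars in the 9 libraries. Tnfrsf9-205 is between 9.20 and 12.8 FPKM in all stimulated libraries while Tnfrsf9-202 and Tnfrsf9-208 vary, and in Fas the bars of Fas-201 and Fas-204 change places within each group.

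Tnfrsf14 (ENSMUSG00000042333, chr4:154921933-154928563) encodes HVEM, the receptor for LIGHT and BTLA. It was low, at 0.526, 1.01 and 1.06 FPKM in Con, at 2.60, 2.21 and 2.12 in TNF-α and at 1.61, 2.01 and 1.42 in TNF-α+WBT. The 3 groups did not overlap, with TNF-α+WBT between the others. The rise in TNF-α was 1.37 (SE 0.25, 2.58-fold, limma adjusted p = 0.0180) and rested on an estimated 15.5 to 23.5 fragments per Con library. It missed the threshold when any TNF-α library was left out, at 1.29 with an adjusted p of 0.0684 without replicate 1, at 1.40 with 0.0580 without replicate 2 and at 1.43 with 0.0519 without replicate 3. For TNF-α+WBT against Con it was 0.92 (SE 0.25, adjusted p = 0.106), and for TNF-α+WBT against TNF-α it was -0.45 (95% interval -1.03 to 0.14, adjusted p = 0.830). Its main transcript, the coding Tnfrsf14-205, was at 0.40, 0.42 and 0.56 FPKM in Con, at 1.40, 1.50 and 1.56 in TNF-α and at 1.04, 1.23 and 0.97 in TNF-α+WBT. It rose by 1.51 in TNF-α (SE 0.21, adjusted p = 0.0227), and this call was lost when any of 6 libraries was left out (Con replicates 1 and 2, all 3 of TNF-α and TNF-α+WBT replicate 1), at adjusted p-values of 0.0505 to 0.0984.

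Tnfrsf12a (ENSMUSG00000023905, chr17:23675445-23677468) encodes Fn14, the receptor for TWEAK, and was the most abundant of the 10 genes. It was at 68.4, 78.4 and 77.3 FPKM in Con, at 84.3, 67.2 and 86.5 in TNF-α and at 62.9, 79.9 and 86.6 in TNF-α+WBT. The groups overlapped, and the difference between TNF-α and Con was 0.08 (95% interval -0.22 to 0.39, limma adjusted p = 0.846). Its main coding transcript, Tnfrsf12a-201, was at 41.0 to 73.1 FPKM, and another coding transcript, Tnfrsf12a-206, whose bases all lie within Tnfrsf12a-201, was at 9.58 to 21.8 FPKM in TNF-α replicates 1 and 2 and TNF-α+WBT replicates 1 and 2 and at 0 in the other 5.

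The remaining members were at the limit of detection. Cd40 (ENSMUSG00000017652, chr2:165055627-165072948), the costimulatory receptor for CD40 ligand, was listed at 0.026 FPKM in Con replicate 1, 0.030 in TNF-α replicate 2 and 0.034 in TNF-α+WBT replicate 2, about 2 fragments each, and at 0 in the other 6 libraries. Tnfrsf11b (ENSMUSG00000063727, chr15:54250619-54278484), which encodes osteoprotegerin, a secreted decoy receptor of RANKL, was at 0.016 and 0.019 FPKM in TNF-α replicates 2 and 3, an estimated 1 fragment each, and at 0 in the other 7, so it was not tested. A count of 0 allows up to 3 fragments in a library, and no fold change is given for either gene since every library lay at or under that limit. Intervals and limits of this kind cover counting error only.

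**Figure D3:**
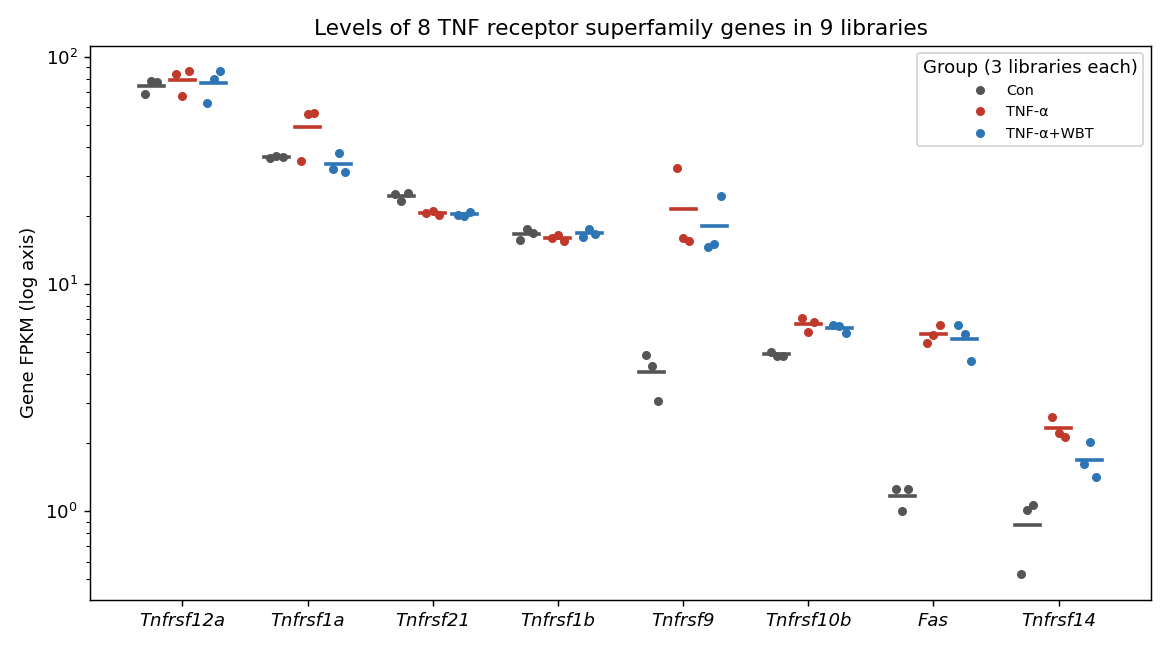
Gene FPKM on a log axis for the 8 receptors above the limit of detection, with a point per library and a bar at the mean of each group of 3. Tnfrsf9, Tnfrsf10b, Fas and Tnfrsf14 lie higher in both stimulated groups than in Con, Tnfrsf21 lies lower, and Tnfrsf1a is split within TNF-α between 34.7 and 56.8.

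Set in order of their means in Con, the levels ran from Tnfrsf12a (74.7 FPKM) through Tnfrsf1a (36.3), Tnfrsf21 (24.4), Tnfrsf1b (16.6), Tnfrsf10b (4.90), Tnfrsf9 (4.08), Fas (1.17) and Tnfrsf14 (0.864) to Cd40 and Tnfrsf11b at the limit of detection. FPKM is per length, but the gene values of Tnfrsf1a and Tnfrsf9 also carry the short transcripts described above, which weigh more per fragment, so the order is that of the deposited gene FPKM. Tnfrsf10b and Tnfrsf9 overlapped in Con, and so did Fas and Tnfrsf14. In TNF-α, Tnfrsf9 stood next after Tnfrsf12a and Tnfrsf1a with a mean of 21.4 FPKM but rested there on replicate 1 (32.5), since replicates 2 and 3 (16.0 and 15.5) lay below every library of Tnfrsf21 (mean 20.5) and among those of Tnfrsf1b (mean 16.0). Tnfrsf10b at 6.68 overlapped Fas at 6.03. In TNF-α+WBT the values of Tnfrsf9 (mean 18.0) overlapped those of both Tnfrsf21 and Tnfrsf1b, at means of 20.3 and 16.7.

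Of the 10 members, 9 had values above 0 in at least 3 libraries and were tested. Against Con, 5 of these 9 were called in TNF-α at an adjusted p under 0.05 by limma, 4 of them higher (Fas, Tnfrsf9, Tnfrsf14 and Tnfrsf10b) and 1 lower (Tnfrsf21). Of all 25417 genes tested, 4.86% were called in this comparison, 2.94% higher and 1.93% lower. By the second rule, a fold change over 2 at an unadjusted p under 0.05, 3 members passed (Fas, Tnfrsf9 and Tnfrsf14) against 2.42% of all genes. Over the 8 tested members above the limit of detection (all but Cd40) the median difference was 0.42 in gene FPKM, 0.23 in FPM and 0.20 over protein-coding transcripts, and that of all genes was 0.00 in gene FPKM. These 10 genes were listed with earlier results of the same data known, so the shares describe them and are not a test.

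In TNF-α+WBT against Con, 4 of 9 were called, 3 higher (Fas, Tnfrsf9 and Tnfrsf10b) and 1 lower (Tnfrsf21), where 3.71% of all genes were, 2.31% higher and 1.4% lower. By the second rule 2 passed (Fas and Tnfrsf9), against 2.29% of all genes. The median of the same 8 members was 0.20 and that of all genes 0.00. This comparison and the one of TNF-α with Con share the 3 Con libraries.

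Between TNF-α+WBT and TNF-α no member was called by limma, and 1 of 9, Tnfrsf1a, was under 0.05 before adjustment, as were 6.31% of all genes. Of all genes 0.00393% were called, which is 1 gene of 25417, and 1.12% passed the second rule, among them no member. No member was called under any of the other 21 settings tried. The 95% intervals of the differences were -0.11 to 0.08 for Tnfrsf21, -0.06 to 0.19 for Tnfrsf1b, -0.22 to 0.10 for Tnfrsf10b, -0.36 to 0.25 for Tnfrsf12a and -0.43 to 0.27 for Fas (-1.21 to 2.71 around 0.75 over its coding transcripts), while those of Tnfrsf9 and Tnfrsf14 reached from -0.94 to 0.54 and from -1.03 to 0.14. Tnfrsf14 was the only member whose TNF-α and TNF-α+WBT libraries did not overlap in gene FPKM, with an exact two-sided permutation p of 0.1, the smallest possible with 3 against 3. Of all genes tested, 11% did not overlap between these groups, so that 1 of 9 is near the background.

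Of the 46 annotated transcripts of the 10 genes, 33 could be tested. In TNF-α against Con 2 were called (Tnfrsf9-205 and Tnfrsf14-205), where 0.635% of all transcripts were. In TNF-α+WBT against Con 1 was called (Tnfrsf9-205), against 0.455%, and in TNF-α+WBT against TNF-α none was, against 0.0424%. In the last comparison 2 of the 33, Tnfrsf1a-204 and Fas-205, had an unadjusted p under 0.05 by limma, as did 5.17% of all transcripts. Fas-205, a processed transcript, was at 0.95, 0.67 and 0 FPKM in TNF-α+WBT, an estimated 8.91, 6.77 and 0 fragments. It was at 0.047 FPKM in TNF-α replicate 3 and at 0 in the remaining libraries. Tnfrsf1a-204 passed the threshold when TNF-α replicate 1 was left out (limma adjusted p = 0.00129), and Fas-205 when TNF-α+WBT replicate 3 was (limma adjusted p = 0.0255). In both cases the library left out was the only one of its group at 0 for that transcript. With the same libraries left out, Tnfrsf1a-204 passed it in TNF-α against Con (7.52, limma adjusted p = 0.000489) and Fas-205 in TNF-α+WBT against Con (3.17, limma adjusted p = 0.00835).

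**Figure D4:**
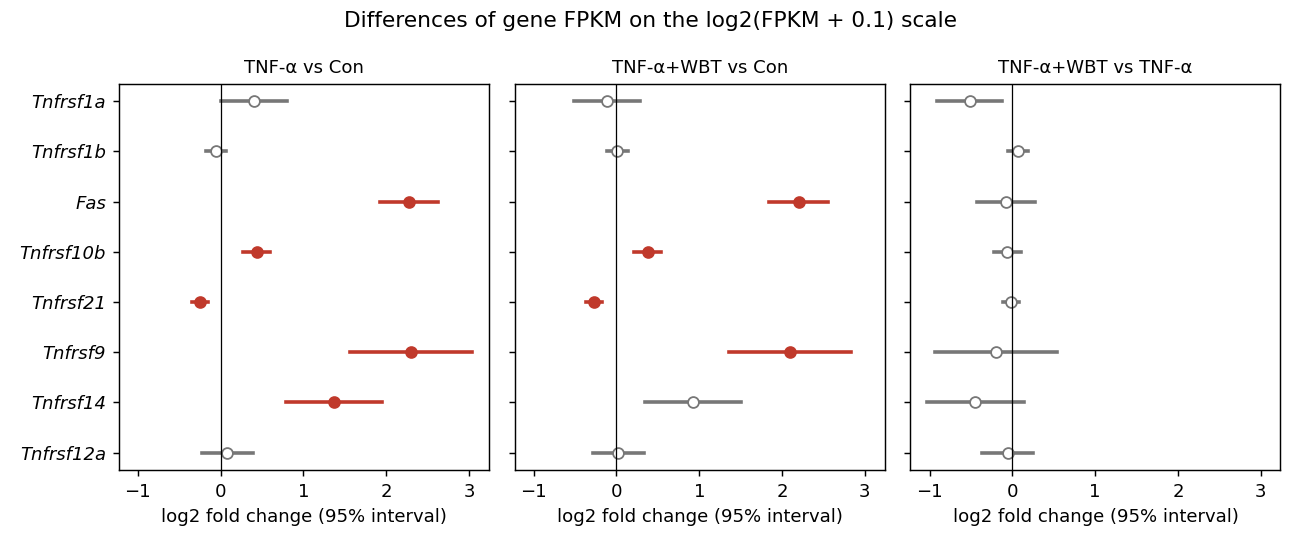
Log2 fold changes of 8 receptors with 95% intervals in the 3 comparisons, on the log2(FPKM + 0.1) scale. Filled red points have a limma adjusted p under 0.05, which 5 members reach in TNF-α against Con, 4 in TNF-α+WBT against Con and none in TNF-α+WBT against TNF-α.

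The other 18 receptors of the superfamily were listed as a background to these members. Of the 17 tested, 4 were called in TNF-α against Con beside 4.86% of all genes, with a median of 0.05 for the list and 0.00 for all genes. Ngfr, the p75 neurotrophin receptor and the most abundant of them, was at 169, 165 and 174 FPKM in Con, at 97.6, 96.7 and 96.7 in TNF-α and at 107, 107 and 110 in TNF-α+WBT. It fell by 0.80 in TNF-α (SE 0.03, limma adjusted p = 2.26e-06) and by 0.65 in TNF-α+WBT (adjusted p = 1.04e-05), and its TNF-α+WBT libraries all lay above its TNF-α libraries, by 0.15 (adjusted p = 0.354). Since Ngfr is also in the Schwann cell list, the sums of the other 11 genes of that list belong beside it, and they were 687 to 736 FPKM in Con, 619 to 678 in TNF-α and 668 to 695 in TNF-α+WBT, the last overlapping both. Whether a shift in the makeup of the cultures had a part in the fall of Ngfr was not tested.

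Tnfrsf25, a death receptor for TL1A, fell by 0.57 in TNF-α (adjusted p = 0.00475) and by 0.55 in TNF-α+WBT (adjusted p = 0.00777). Tnfrsf23, a decoy receptor for TRAIL, rose by 0.60 (adjusted p = 0.0223) and 0.59 (adjusted p = 0.0285), and Eda2r, the receptor for ectodysplasin A2, by 0.24 (adjusted p = 0.0188) and 0.36 (adjusted p = 0.00301). In TNF-α against Con the call on Tnfrsf23 was lost without any of 4 libraries (Con replicates 2 and 3 and TNF-α replicates 1 and 2) and that on Eda2r without any of 5 (Con replicates 1 and 3 and each of TNF-α), at adjusted p-values of 0.0524 to 0.0819 and 0.0525 to 0.0736. In TNF-α+WBT against Con, where the same 4 genes were called, Tnfrsf23 lost it without any of 6 (Con replicates 2 and 3, TNF-α replicate 2 and each of TNF-α+WBT), at 0.0515 to 0.0976. Ltbr, the lymphotoxin β receptor, was at 33.7, 33.5 and 33.1 FPKM in Con and at 34.0, 36.6 and 36.4 in TNF-α and was not called.

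Among 18 ligands of the family, 10 were tested. Tnf itself was listed at 0 in all 9 libraries, as were Cd40lg and Tnfsf14, the genes for the ligands of Cd40 and Tnfrsf14. Tnfsf9, the gene for the ligand of Tnfrsf9, was the most abundant of them at 6.65 to 8.25 FPKM in Con, 7.22 to 7.72 in TNF-α and 8.25 to 10.3 in TNF-α+WBT, and it was not called. Tnfsf9 shares 192 exon bases with Gm11110, a non-coding gene on the opposite strand at a mean of 6.73 FPKM, and the strand of the libraries is not stated. In TNF-α against Con 1 of the 10 was called, beside 4.86% of all genes. This was Eda, ectodysplasin A, which fell by 0.96 (SE 0.22, limma adjusted p = 0.0433). Eda lost the call when any of 7 libraries was left out, at adjusted p-values of 0.0628 to 0.143 (each library but Con replicate 1 and TNF-α+WBT replicate 3). No ligand was called in TNF-α+WBT against Con, where 4 of the 10 had an unadjusted p under 0.05 beside 14.7% of all genes, nor in TNF-α+WBT against TNF-α, where 1 of 10 did beside 6.31%.

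Of 27 genes that act just below the receptors, 9 were called in TNF-α against Con, all higher, beside 4.86% of all genes and 2.94% higher, with a list median of 0.15 beside 0.00 for all genes. Tnfaip3, the ubiquitin-editing enzyme A20 that restrains NF-κB, was at 3.79, 4.92 and 4.24 FPKM in Con, at 17.1, 13.9 and 10.0 in TNF-α and at 14.9, 14.2 and 8.47 in TNF-α+WBT. It rose 3.06-fold in TNF-α (log2 1.62, SE 0.25, limma adjusted p = 0.00681) and 2.79-fold in TNF-α+WBT (log2 1.48, adjusted p = 0.0134), the latter not called without any of 4 libraries (Con replicates 1 and 3 and TNF-α+WBT replicates 1 and 2), at 0.0520 to 0.0559. Bid, a target of the initiator caspase, rose by 0.48 in TNF-α (adjusted p = 0.000183), and Adam17, the sheddase of TNF-α and its receptors, by 0.47 (adjusted p = 0.000464). The adaptors Traf2 and Traf3 rose by 0.61 each (adjusted p-values 0.00628 and 0.0115), and Birc2, a ubiquitin ligase of the receptor complex, and Casp8, the initiator caspase, by 0.41 each (adjusted p-values 0.0103 and 0.0129). Traf5 and the kinase gene Chuk completed the 9, at 0.35 and 0.15, and both lost their call in most of the sets with a library left out, in 7 and 9 of 9, as Casp8 did without Con replicate 3 (adjusted p = 0.0547).

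Against Con, 5 of the 27 were called in TNF-α+WBT beside 3.71% of all genes, also all higher (Traf2, Traf3, Bid, Adam17 and Tnfaip3), at 0.48, 0.67, 0.45, 0.40 and 1.48, and Traf2 lost it without any of Con replicates 2 and 3 and TNF-α+WBT replicates 2 and 3 (adjusted p-values 0.0802 to 0.0867). Over coding transcripts alone Adam17 turned to -0.45 in TNF-α and -0.26 in TNF-α+WBT and was not called (adjusted p-values 0.770 and 0.888), Chuk turned to -0.16 in TNF-α (adjusted p = 0.242), and Tnfaip3, at 1.15 and 1.37, lost its call in both comparisons (adjusted p-values 0.197 and 0.143). Bid shares 628 of its 3550 exon bases with Bcl2l13 and Adam17 311 of 7154 with Iah1 on the opposite strand, and since the library strand is not stated, reads over the shared bases cannot be told apart. Tnfrsf23 shares 164 of 3962 with an antisense gene that was at a mean of 0.0766 FPKM, and none of the 10 members shares exon bases with another annotated gene. Between TNF-α+WBT and TNF-α none of the 17 other receptors or 27 signalling genes was called by limma, and 2 of each list had an unadjusted p under 0.05, beside 6.31% of all genes.

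**Figure D5:**
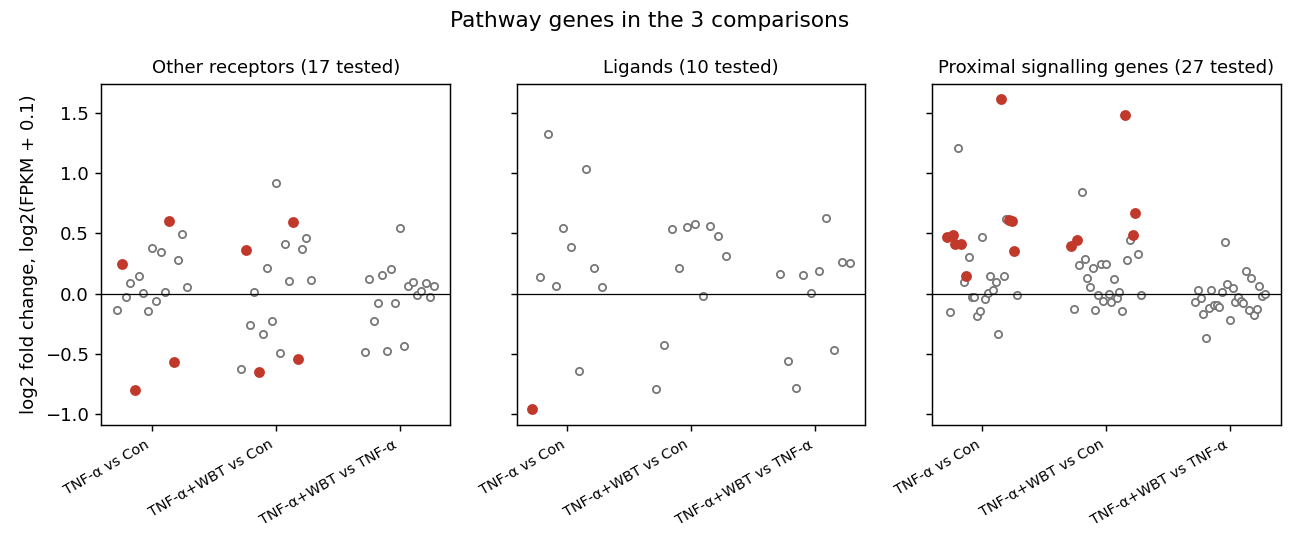
Log2 fold changes of the other receptors (17 tested), ligands (10) and proximal signalling genes (27) in the 3 comparisons, each point a gene. Filled red points have a limma adjusted p under 0.05, which 4 receptors, 1 ligand and 9 signalling genes reach in TNF-α against Con and none reaches in TNF-α+WBT against TNF-α.

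The genes with the profile nearest to Tnfrsf9 were sought in the 12686 genes that averaged 1 FPKM or more, as the smallest root mean square difference of log2(FPKM + 0.1), centred by gene, over the 9 libraries. They were Nfkbie (difference 0.29), Rgs16 (0.39), Rhbdl2 (0.39), Gbp7 (0.40) and H2-Q4 (0.41). Nfkbie, which encodes an inhibitor of NF-κB, went from 6.19, 4.73 and 3.43 FPKM in Con to 31.5, 21.8 and 31.5 in TNF-α and 16.1, 18.0 and 25.6 in TNF-α+WBT, and the other 4 were at least 3 times as high in the mean of TNF-α as in that of Con. For Tnfrsf1a they were Znrd1as (0.11), Amotl2 (0.14), Rps25 (0.15), Foxo6 (0.16) and Fubp1 (0.16). Both sets were picked for their likeness over the same 9 libraries, so a shared pattern follows from the choice and is no separate result. All 5 genes near Tnfrsf1a had higher gene FPKM in TNF-α replicates 2 and 3 than in replicate 1, such as 266, 426 and 427 for Rps25, a ribosomal protein gene. In FPM Fubp1 (180, 188 and 196) and Amotl2 (162, 166 and 161) were close to level over these libraries, as Tnfrsf1a was, while the other 3, Rps25 (255, 396 and 401), Znrd1as (2.13, 4.23 and 3.94) and Foxo6 (4.54, 5.64 and 6.10), were not.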

How the data were processed

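9 poly(A) RNA libraries were sequenced as paired ends. Reads are recorded as aligned with HISAT2 and assembled with StringTie, with values from Ballgown, though the text of the paper names none of these tools. The authors deposited FPKM per gene and per transcript. Tool versions and the genome build are not given in the sources used here. Gene and transcript models came from GENCODE M21, and promoters from RefSeq on GRCm38.p6. Neither deposited table holds counts, so depth and fragments were estimated from the steps between low FPKM values and are approximate. The depth was sought within a range set in advance. At the depths chosen, 48.3% to 53.3% of the low values of a library lay within 0.1 of a whole fragment.

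The 9 libraries were fitted in 1 limma model (version 3.58.1, R 4.3.3) on log2(FPKM + 0.1), with a variance trend. Genes or transcripts above 0 in at least 3 libraries were kept, and p-values were adjusted by Benjamini-Hochberg over all of them. Fold changes are on this scale, which understates changes of low genes. On simulated data the fit, when tested, recovered most of the changed genes and made a larger share of false calls than the nominal level. The simulation was a single draw of counts per gene, with the same set spread for every gene. It assigned no reads to transcripts, so it does not cover the spread by transcript described for Tnfrsf1a, Tnfrsf9 and Fas. Exact permutation tests used scipy 1.17.1 under Python 3.11.15, and tables and figures pandas 2.3.3, numpy 2.4.6 and matplotlib 3.10.9. The alternatives were other pseudocounts, filters, scalings and variance models, summed transcripts, a replicate block and leaving out each library.

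Members and lists were chosen with earlier results of these data known. All members were described, and from each other list up to 8 called genes by smallest p, plus Tnf and Ltbr. Transcripts were named for Tnfrsf1a and Tnfrsf9 where they reached 0.5 FPKM, and the most abundant for other members. Chuk, Ltb, Tnfsf9, Tnfsf12, Cd40lg, Tnfsf14, the remaining Fas transcripts and Tnfrsf12a-206 fall outside this rule and were chosen after their values were seen.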

Additional observations from a re-analysis of the deposited data

How the results depend on the processing

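No member was called between TNF-α+WBT and TNF-α under any of the 21 alternatives for genes, which included FPM and protein-coding transcripts alone, both chosen after seeing the data. In that comparison the count over all genes, 1 as reported, ranged from 0 to 11. The second rule depends on low genes. Past it in TNF-α against Con were 615 genes as reported, 128 with a pseudocount of 1 (2 members, not 3) and 1057 with 0.01. With a mean of at least 1 FPKM there were 207, and over coding transcripts 335 (2 members, not 3). The same counts were 284, 8, 639, 14 and 92 in TNF-α+WBT against TNF-α, and 583, 105, 1040, 167 and 299 in TNF-α+WBT against Con. The members called against Con stayed between 4 and 5 in TNF-α and between 3 and 4 in TNF-α+WBT. As a share of all genes tested, calls in TNF-α against Con were lowest without Con replicate 3 (823 of 24942). They were highest with a mean of at least 1 FPKM (1369 of 12686). In TNF-α+WBT against Con the same settings gave 579 of 24942 and 1055 of 12686. Among ligands in TNF-α against Con, 1 was called as reported, 2 with a pseudocount of 0.01, with only the 2 groups compared or in FPM, and 0 with no filter on low values. With only the 2 groups compared, Eda lost the call (limma adjusted p = 0.0766) and Ltb and Tnfsf12 gained it, and with a mean of at least 1 FPKM Tnfsf12 was the 1 called, Eda not being tested there. Tnfsf12 shares 731 of its 1515 exon bases with Tnfsfm13, a gene on the same strand at a mean of 9.27 FPKM. Reads over the shared bases cannot be told apart. Over protein-coding transcripts, 5 of the signalling genes were called in TNF-α against Con in place of 9, and 1 ligand in TNF-α+WBT against Con in place of 0. Of all 15114 genes tested that way, 1218 and 921 were called in these comparisons. With only the 2 groups compared, 1 member transcript was called in TNF-α against Con in place of 2.

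With 1 library left out at a time, the calls in TNF-α against Con ranged from 2 to 4 for other receptors, from 0 to 1 for ligands and from 1 to 2 for member transcripts. In TNF-α+WBT against Con they ranged from 0 to 1 for ligands, from 3 to 6 for signalling genes and from 1 to 2 for member transcripts, and in TNF-α+WBT against TNF-α from 0 to 1 for member transcripts. In TNF-α against Con, Tnfrsf1a turned to -0.10 in FPM and -0.18 over coding transcripts, and Tnfrsf12a to -0.061 over coding transcripts. In TNF-α+WBT against TNF-α, coding transcripts gave 0.056 for Tnfrsf1a, 0.049 for Tnfrsf12a and 0.75 for Fas, and leaving out libraries gave -0.44 to 0.15 for Tnfrsf9, -0.17 to 0.076 for Tnfrsf12a and -0.19 to 0.070 for Fas. In TNF-α+WBT against Con, Tnfrsf1b turned to -0.0045 after quantile normalization and ran from -0.031 to 0.046 with libraries left out, and Tnfrsf12a turned to -0.021 in FPM and -0.012 over coding transcripts and ran from -0.073 to 0.16. The cause of these changes was not tested beyond the transcript values given for Tnfrsf1a, Tnfrsf9 and Fas.

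Libraries with the same number in different groups did not deviate together (correlations of -0.07 to 0.10 over 12686 genes), so the numbers were not taken to pair them. With the replicate number as a block, 5, 0 and 3 members were called in TNF-α against Con, TNF-α+WBT against TNF-α and TNF-α+WBT against Con. Of all 25417 genes, 893, 0 and 701 were called there. In TNF-α+WBT against Con, Tnfrsf10b and Traf2 lost the call (adjusted p-values 0.0545 and 0.0788 by limma). In TNF-α against Con, 0 ligands and 1 member transcript were called. Eda2r, Chuk and Traf5 also lost the call in TNF-α against Con (limma adjusted p-values 0.063, 0.0998 and 0.0676). Depth limits Cd40 and Tnfrsf11b, and Tnfrsf14 and Fas rest on few fragments in Con.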
